A study of Mus musculus with 35 samples.

Results

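The question here is whether naphthalene injury changed gene expression differently in the lungs of KO mice than in those of C mice. All 35 libraries of the series enter it. For each gene the naphthalene effect (treated minus untreated, on a log2 scale) was taken in KO lungs and in C lungs at each of 3 days. The C effect was then subtracted from the KO effect, and the 3 daily differences were averaged with equal weight. This value is called the averaged difference below, and a positive one means that the treated to untreated ratio was higher in KO lungs.

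Treated KO lungs (Tr KO) came from RORaf/fIl7riCre mice given naphthalene, with 3 libraries at day 2, 3 at day 5 and 2 at day 7. Untreated KO lungs (Untr KO) came from mice of the same genotype given no agent, with 3 libraries at each day label. Treated C lungs (Tr C) came from RORaf/f mice given naphthalene, and untreated C lungs (Untr C) from RORaf/f mice given no agent, each with 3 libraries per day label. All 4 arms carry the loxP-flanked Rora alleles, written RORaf/f. The KO mice also carry Il7riCre, in which the Il7r locus drives Cre recombinase, so that Rora is recombined in cells that express Il7r or descend from such cells. The label of the C mice names no Cre, so the loss of RORa and the presence of Cre at Il7r cannot be told apart. The series gives the age of the mice as 14 days, without saying how that age relates to the day labels of untreated mice. The untreated mice are labelled with no agent, and no vehicle, dose, route or sex is stated in the sources used here.

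RORa is a nuclear receptor needed for the development of group 2 innate lymphoid cells (ILC2s), tissue-resident lymphocytes that depend on the IL-7 receptor and make IL-5, IL-13 and the growth factor amphiregulin. Naphthalene is activated by cytochrome P450 enzymes of club cells, the secretory cells of the small airways, and kills these cells. The surrounding epithelium then spreads, flattens and later restores the lost cells, and neutrophils and monocytes enter the tissue.

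RNA came from homogenised whole lung, so fewer cells of a type and less RNA per cell cannot be told apart in any value below. Library totals ranged from 10696690 to 21062713 counts. Between 0.715% and 8.12% of counts fell on the ribosomal Rn18s-rs5 and between 0.175% and 2.14% on haemoglobin genes. Untr_5_C replicate 1 stood apart: the microglia gene P2ry12 was at 159 CPM (the count scaled to library size) there and at most 3.92 CPM in the other 34 libraries. Of 12 tested microglia genes, 9 were highest in that library. Several results are therefore given with and without it, and others with it only. Nothing in the labels says that libraries of a group came from separate mice, so the p-values measure the spread between these libraries, which may be technical in part. Rora itself ranged from 25.2 to 64.0 CPM with a median of 44.8 in Tr KO lungs, against 35.5 to 63.0 CPM and 49.5 in Untr KO, 38.1 to 53.4 and 39.3 in Tr C, and 32.1 to 51.1 and 43.2 in Untr C. The arms overlapped, and counts over the whole gene in whole lung do not check a deletion limited to cells with Il7r history.

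No gene had a different averaged naphthalene effect in KO and C lungs at an adjusted p under 0.05. The count was 0 of 20606 tested genes (0%) by edgeR's quasi-likelihood test with Benjamini-Hochberg adjustment, and also 0 by DESeq2 and 0 by limma-voom. At an unadjusted p under 0.05 there were 469 genes (2.28% of those tested) by edgeR, 469 by DESeq2 and 415 by limma-voom. Among the 12230 genes averaging 5 CPM or more there were 130 (1.06%) by edgeR. With no difference in any gene and exact p-values, a share of 0.05 would be expected. The observed shares lay below that, so these genes are no excess, and the source of the shortfall was not tested. The smallest unadjusted p was 0.00102, and every adjusted p was 1. The averaged differences centred on 0, with a median of -0.0022 and quartiles of -0.1238 and 0.1182 on the log2 scale. Without Untr_5_C replicate 1 the count was again 0, and 385 genes (1.87%) had an unadjusted p under 0.05. A p above the threshold does not show that the responses were equal, and the intervals given below say how large a difference each gene leaves room for.

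Naphthalene itself changed many genes in each genotype. Averaged over the days, 970 genes (4.71%) were called in KO lungs, 770 higher (3.74%) and 200 lower (0.971%). In C lungs 792 genes (3.84%) were called, 558 higher (2.71%) and 234 lower (1.14%). Of the 970 genes called in KO lungs, 960 (99%) had the same sign in C lungs and 556 (57.3%) were called there too. Of the 792 called in C lungs, 783 (98.9%) had the same sign in KO lungs and 556 (70.2%) were called. No gene was called in opposite directions. Among genes called in KO lungs the median size of the log2 effect was 0.859 in KO and 0.649 in C lungs, measured in the direction of the KO change. Among genes called in C lungs it was 0.799 in KO and 0.816 in C lungs. The choice of genes by a genotype favours a larger median in it. For the 558 genes called higher in C lungs the median was nevertheless 0.901 in KO and 0.849 in C lungs, and for the 234 called lower the size was 0.534 in KO and 0.727 in C lungs. The KO count was 1545 without Tr_5_KO replicate 1, and the C count was 1241 without Untr_5_C replicate 3, so the 2 counts are not a measure of which genotype responded more.

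**Figure D1:**
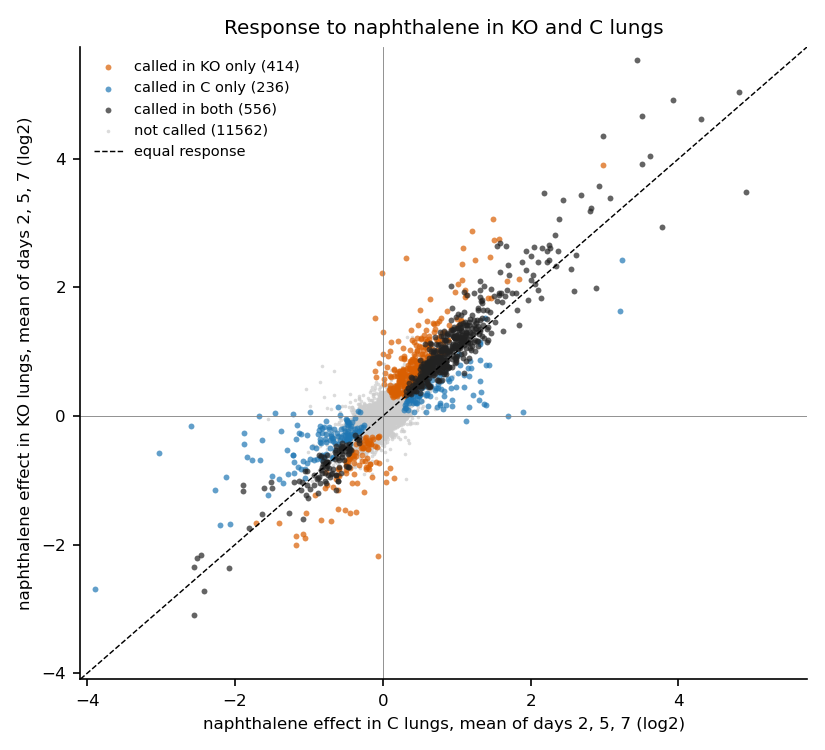
Naphthalene effect (log2, mean of days 2, 5 and 7) in KO lungs on the vertical axis against C lungs on the horizontal axis. Each of 12768 points is a gene that averaged 5 CPM or more or was called; colours mark genes called in KO only (414), in C only (236) and in both (556), and the dashed line marks equal responses. The called genes lie along the line of equal response, in the upper right and lower left.

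The effects in KO and C lungs use no library in common. Across genes averaging 5 CPM or more (12230 genes) they had a Pearson correlation of 0.83 and a Spearman correlation of 0.758. Over all 20606 tested genes the values were 0.671 and 0.593. Genes are not independent replicates, so these values describe the plot of KO against C effects and carry no p. Sharing no library also does not make the KO and C effects independent of each other. Except at the last day, treated and untreated libraries carry different letters in their library names, and KO and C libraries mostly share these letters. Anything that goes with a letter would thus enter both effects alike. Its part in these correlations and in the shared signs was not tested.

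How large a difference the data leave room for depends on the gene. The 95% interval of the averaged difference lay entirely inside a 2-fold change in either direction for 15226 of 20606 genes (73.9%), and for 11942 of the 12230 genes averaging 5 CPM or more (97.6%). The median standard error (SE) was 0.234 over all tested genes and 0.178 over the more abundant ones. Of the 2510 genes called for naphthalene with both genotypes pooled at equal weight (12.2% of those tested), 1964 (78.2%) had such an interval. Their median averaged difference was 0.0631, and 1601 of them were above 0 and 909 below. For genes that fell, a value above 0 means a weaker fall in KO lungs. The excess above 0 lay in the 1489 genes that rose (median 0.1053, 1069 above 0 and 420 below). The 1021 genes that fell had a median of 0.0061, with 532 above 0 and 489 below. Genes are not independent, and this excess was not tested. Over all 2510 genes the median half-width of the intervals was 0.499 on the log2 scale. For a typical responsive gene, differences well under 2-fold thus already lay outside the interval. The intervals hold for single genes and are not adjusted for 20606 tests, so they do not give the size that would have been called. Averaged differences of 0.995 for Cd177 and 1.44 for Trim10 were not called.

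The club cell transcript Scgb1a1 (ENSMUSG00000024653), which encodes the main secretoglobin of the airway lining, fell after naphthalene in both genotypes. At day 2 it was at 395, 417 and 465 CPM in Tr KO lungs against 5200, 5850 and 8640 CPM in Untr KO lungs. Tr C lungs had it at 740, 574 and 376 CPM against 6860, 7560 and 6120 CPM in Untr C lungs. Treated and untreated lungs did not overlap in either genotype, while Tr KO and Tr C lungs did. At day 7 it had come back in part, to 3720 and 2460 CPM in Tr KO lungs against 9930, 10500 and 17100 CPM in Untr KO lungs. In Tr C lungs it was then at 6730, 4800 and 3390 CPM against 16800, 11600 and 16500 CPM in Untr C lungs. The averaged effect was -2.73 ± 0.17 (SE) in KO lungs (edgeR adjusted p = 2.03e-12) and -2.42 ± 0.16 in C lungs (5.06e-12). The averaged difference was -0.31 ± 0.22 with a 95% interval from -0.749 to 0.138, and it was not called.

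Other airway secretory genes gave no called difference either. Of 20 club cell genes, 6 fell and 2 rose in KO lungs, 5 fell and 1 rose in C lungs, and 0 were called for the difference, whose median was -0.028. Over all tested genes 0.971% fell and 3.74% rose in KO lungs, and 1.14% fell and 2.71% rose in C lungs. These shares stand beside the counts of averaged effects for every list below. Cyp2f2, the P450 enzyme that activates naphthalene in mouse club cells, fell by 0.911 in KO and by 0.926 in C lungs, a difference of 0.02 ± 0.23. The secreted protein Lypd2 fell by 1.6 in KO and by 1.09 in C lungs and had the smallest p of the list (-0.52 ± 0.35, unadjusted p = 0.151). The carbonyl reductase Cbr2, the second most abundant member, was not called in either genotype (-0.33 ± 0.15 and -0.31 ± 0.14), with a difference of -0.02 ± 0.20. Tff2, a trefoil peptide of mucous cells, fell by 1.67 in KO lungs (adjusted p = 0.049) and was at -1.41 ± 0.45 in C lungs (adjusted p = 0.0795). That Tff2 passed in KO lungs and not in C lungs is no difference between them, since the difference itself was -0.26 ± 0.68.

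**Figure D2:**
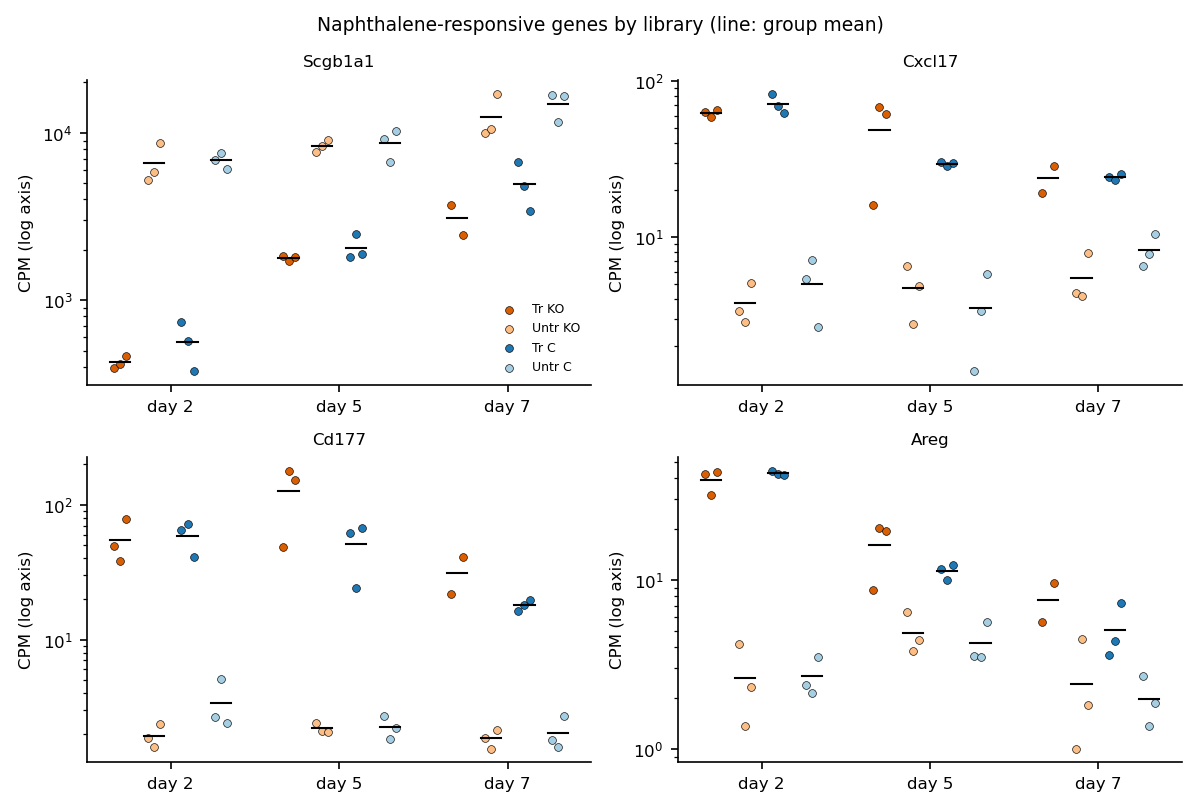
CPM on a log axis for Scgb1a1, Cxcl17, Cd177 and Areg in each library, by day and arm (Tr KO, Untr KO, Tr C, Untr C); short lines are group means. For each gene and within each day, the treated libraries of a genotype do not overlap its untreated libraries, and Tr KO and Tr C libraries overlap at day 2.

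The largest increases after naphthalene were also shared. Cd177, a surface glycoprotein best known from neutrophils, had the smallest p for the difference among the 12 genes named for the size of their naphthalene effect. At day 5 it was at 48.7, 178 and 153 CPM in Tr KO lungs against 2.41, 2.10 and 2.06 CPM in Untr KO lungs. Among C lungs, treated ones were at 62.0, 24.1 and 67.2 CPM against 2.69, 1.83 and 2.19 CPM in Untr C lungs. The highest Tr KO libraries lay above all Tr C libraries, but Tr_5_KO replicate 1 lay among them. Its averaged effect was 4.92 ± 0.26 in KO and 3.93 ± 0.24 in C lungs. The averaged difference was 0.995 ± 0.34 with an interval from 0.303 to 1.69 (unadjusted p = 0.00626, adjusted p = 1), and it was not called.

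The EGF receptor ligands Areg and Ereg rose in both genotypes, with no called difference. Areg, which encodes amphiregulin, was at 42.0, 31.9 and 43.5 CPM in Tr KO lungs at day 2 against 4.16, 1.38 and 2.34 CPM in Untr KO lungs. C lungs after naphthalene had 43.9, 42.5 and 41.9 CPM against 2.39, 2.15 and 3.53 CPM in Untr C lungs. The 2 treated groups overlapped and stood far above the untreated ones. Its averaged effect was 2.43 ± 0.23 in KO and 2.24 ± 0.23 in C lungs, a difference of 0.19 ± 0.32 (interval -0.469 to 0.847). Ereg, which encodes epiregulin, rose by 4.05 ± 0.34 in KO and 3.62 ± 0.34 in C lungs, a difference of 0.43 ± 0.54. Of 10 EGF receptor ligands and receptors, 3 rose in each genotype and 0 were called for the difference (median 0.108). The ligand Egf had the smallest p of these (1.02 ± 0.42, unadjusted p = 0.0194), at a mean of 0.863 CPM.

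Of 18 genes of injury-associated epithelium, 11 rose and 1 fell in KO lungs, and 12 rose and 1 fell in C lungs. The median averaged difference was 0.027, and 11 of 18 values were above 0. The keratin Krt8 rose by 0.80 in KO and 0.81 in C lungs, a difference of -0.005 ± 0.20, and the tight junction protein Cldn4 by 1.33 and 1.32. The lectin Lgals3 rose by 0.91 ± 0.17 in KO and 0.69 ± 0.16 in C lungs, a difference of 0.22 ± 0.23. The cell cycle inhibitor Cdkn1a was not called in either genotype (0.78 ± 0.29 and 0.78 ± 0.28), and its difference of 0.001 ± 0.40 had an interval from -0.816 to 0.818. Psapl1 rose by 4.63 ± 0.37 in KO and 4.30 ± 0.38 in C lungs, and the airway chemokine Cxcl17 by 3.18 ± 0.25 and 2.81 ± 0.24. The differences were 0.32 ± 0.70 and 0.38 ± 0.34. The serine protease Prss22 rose in both genotypes (5.04 and 4.83), but its untreated libraries held at most 0.303 CPM in KO and 0.311 CPM in C. Its difference was 0.22, and the SE of 2.03 is only rough at such low counts.

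Most ciliated cell genes rose after naphthalene in both genotypes. Of 20 ciliated cell genes, 14 rose in KO and 13 in C lungs, with medians of 0.821 and 0.797 on the log2 scale. The averaged differences of the list lay between -0.179 and 0.242, with a median of 0.054. Foxj1, the regulator of motile cilia, rose by 1.30 in KO and 1.19 in C lungs, a difference of 0.11 ± 0.31. The dynein Dnah9 had the smallest p among positive members (0.20 ± 0.16) and the cyclin Ccno among negative ones (-0.18 ± 0.23). Tppp3, the most abundant member, was not called in either genotype (-0.05 ± 0.12 and 0.03 ± 0.12). Its difference was -0.08 ± 0.17.

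Surfactant-producing alveolar type 2 cells, basal cells, goblet cells and NRF2 targets, the genes of the electrophile response, had 0 members called for the difference. Of 16 alveolar type 2 genes 4 rose in KO and 3 in C lungs, with a median difference of 0.116. Of 12 basal cell genes 2 rose in KO and 3 in C lungs (median 0.158). Trp63, the transcription factor that marks basal cells, had the smallest p of that list (0.87 ± 0.41, unadjusted p = 0.0404). Of 14 goblet cell genes 3 rose and 1 fell in KO lungs and 2 rose in C lungs, with a median of 0.183, which was -0.0197 without Tr_7_KO replicate 2. The goblet median was -0.72 at day 2 with 0 of 14 above 0, 0.69 at day 5 with 12 of 14 above 0, and 0.532 at day 7. The median of alveolar type 2 genes was -0.0279 without Untr_5_C replicate 3, and that of basal cell genes ranged from 0.0604 without Untr_5_C replicate 3 to 0.383 without Untr_7_KO replicate 3. Of 18 NRF2 targets 5 rose and 1 fell in KO lungs and 4 rose and 1 fell in C lungs, and the median difference was -0.009. The list medians over all libraries stand beside -0.0022 over all tested genes.

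ILC2 genes, the ones closest to the deletion, gave no called difference either. Of 18 tested genes of the list, 2 rose after naphthalene in each genotype, Areg and the neuropeptide precursor Calca. Calca rose by 2.11 ± 0.25 in KO and 2.01 ± 0.24 in C lungs, a difference of 0.11 ± 0.35. Both genes are also made by epithelial or neuroendocrine cells, and 11 of the 18 differences were above 0 (median 0.1). The median was -0.028 without Tr_7_KO replicate 2. The summed level of the list ranged from 246 to 331 CPM (median 277) in Tr KO, 236 to 308 (274) in Untr KO, 239 to 312 (284) in Tr C and 225 to 324 (256) in Untr C lungs. The arms overlapped over almost the whole range, and most of the sum comes from genes that other lung cells express, such as Lmo4 and Rora, at means of 89 and 45.7 CPM. Il5, the cytokine most particular to ILC2s in this list, was at most 0.62 CPM in any library, and its difference of -0.48 ± 0.77 had an interval from -2.04 to 1.08. At that depth an ILC2 response of either genotype was not detectable from Il5.

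The receptors Il7r, Il1rl1 and Il17rb of the ILC2 list were below 0 at day 2 and above 0 at day 5, which the average does not show. The list as a whole did not follow them. Over its 18 tested genes the median was -0.054 at day 2 (7 above 0) and -0.0258 at day 5 (8 above 0). It was 0.138 at day 7 (11 above 0), and 0.06 at day 5 without Untr_5_C replicate 1. For Il7r, which encodes the IL-7 receptor and carries the Cre, the KO minus C difference of the naphthalene effect was -1.11 at day 2, 1.85 at day 5 and 0.605 at day 7. For Il1rl1, the IL-33 receptor, it was -0.83, 1.52 and 0.49, and for Il17rb, the IL-25 receptor, -1.51, 2.12 and -0.32. The test of a change between days gave unadjusted p values of 0.00526, 0.021 and 0.00485, and none was called. At day 5 Il7r was at 11.2, 3.43 and 4.45 CPM in Tr KO lungs against 4.75, 4.86 and 5.12 CPM in Untr KO lungs. The Tr C libraries were at 4.74, 2.55 and 4.04 CPM against 12.2, 10.7 and 8.85 CPM in Untr C lungs. Untr C lungs lay above all Tr C lungs, while Tr KO and Untr KO lungs overlapped, with Tr_5_KO replicate 1 alone above 5.12 CPM. That library was also the highest Tr KO library of day 5 for Il1rl1 (6.89 CPM, the others 1.42 and 2.59) and for Il17rb (2.55 CPM, the others 0.791 and 0.902). The Il7r locus carries the Cre in KO mice alone, and the part of that allele in the Il7r counts was not tested. The averaged difference of Il7r was 0.45 ± 0.35 (interval -0.263 to 1.16).

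Of 14 tested IL-13 targets and genes of alternatively activated macrophages, 1 rose in each genotype and 0 were called for the difference, with a median of 0.128. Their median was -0.712 at day 2 with 2 of 14 above 0, 0.663 at day 5 and 0.689 at day 7, and the averaged median was 0.0562 without Tr_5_KO replicate 1. Retnla, a secreted product of macrophages and epithelium under IL-4 and IL-13, was at 320, 123 and 104 CPM in Tr KO lungs at day 5 against 15.9, 22.2 and 16.9 CPM in Untr KO lungs. In Tr C lungs it was at 92.7, 102 and 154 CPM against 70.8, 157 and 107 CPM in Untr C lungs. KO lungs of day 5 separated by treatment and C lungs did not, while at day 2 the treated KO libraries overlapped the untreated ones. Its daily differences were -1.88, 3.25 and 1.31, and the average was 0.90 ± 0.65, not called. The chitinase-like protein Chil3 rose by 1.85 ± 0.21 in KO and 1.32 ± 0.20 in C lungs, a difference of 0.53 ± 0.28. Of 11 type 2 cytokine and receptor genes and 8 eosinophil genes, 0 were called for the difference, with medians of -0.045 and 0.007. Of 21 tested circadian clock genes and ROR targets, 0 were called either for naphthalene in KO or C lungs or for the difference (median 0.107, and -0.037 without Tr_7_KO replicate 2), and Rora was at -0.08 ± 0.17.

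**Figure D3:**
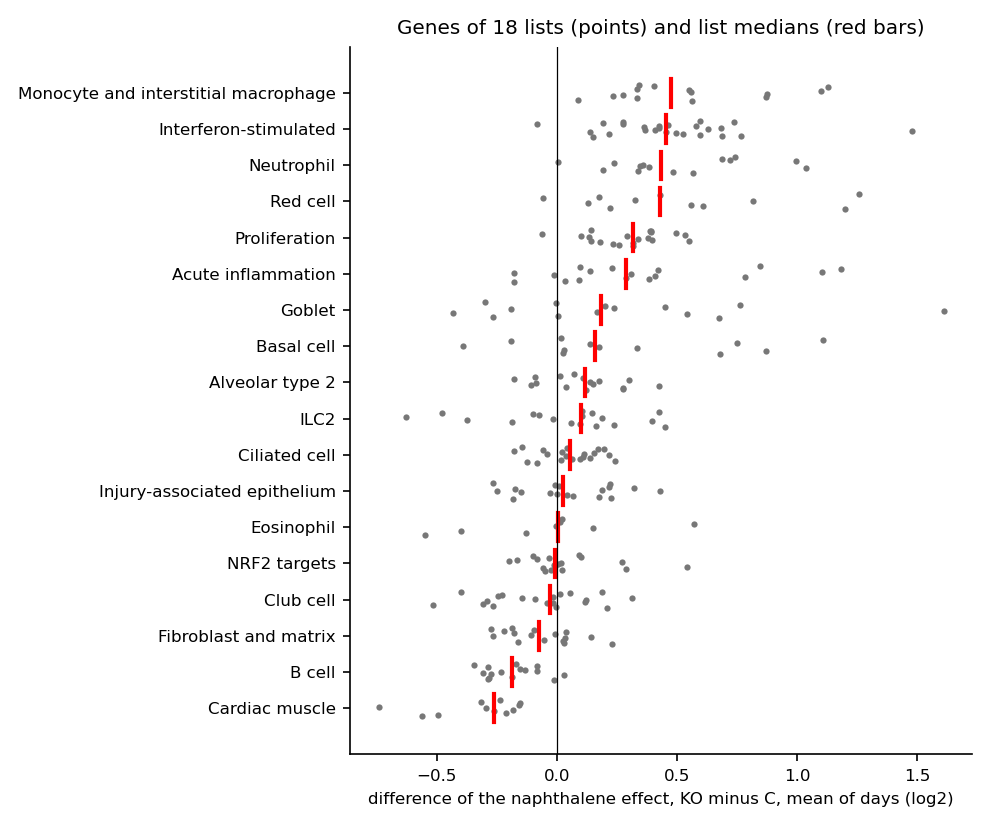
Averaged difference (KO minus C naphthalene effect, log2) for each tested gene (points) of 18 gene lists, with list medians (red bars), ordered by median. Monocyte, interferon-stimulated, neutrophil and red cell lists have medians between 0.429 and 0.477, club cell, ciliated cell and injury lists have medians between -0.028 and 0.054, and all 11 cardiac muscle genes lie below 0; none of the genes was called.

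Among the 18 lists plotted, the highest medians belonged to immune and blood cell genes and interferon-stimulated genes, and several of these depend on a single library. Of the lists not plotted, microglia genes (described below) and 5 tested liver genes (0.489, and 0.198 without Untr_5_C replicate 1) had higher medians. Of 14 neutrophil genes, 8 rose in KO lungs and 3 in C lungs, and all 14 differences were above 0 with a median of 0.435. The summed neutrophil level at day 7 was 760 and 171 CPM in Tr KO lungs against 171, 139 and 138 CPM in Untr KO lungs. In Tr C lungs it was 206, 273 and 137 CPM against 141, 99.5 and 118 CPM in Untr C lungs. A single Tr KO library lay above all others of that day. Without it (Tr_7_KO replicate 1) the median difference of the list was -0.0305, and without Tr_7_KO replicate 2 it was 0.694. The alarmin S100a9, the most abundant member, rose by 1.21 ± 0.33 in KO lungs and was not called in C lungs (0.52 ± 0.32), and its difference of 0.69 ± 0.46 was not called. Of 14 monocyte and interstitial macrophage genes all had differences above 0 with a median of 0.477, which was 0.198 without Untr_5_C replicate 1.

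Of 17 tested genes of acute inflammation, 4 rose in KO and 2 in C lungs, and the median difference was 0.289. It was 0.274 without Untr_5_C replicate 1 and 0.164 without Untr_5_C replicate 3. By day the median was -0.0325 at day 2, 0.708 at day 5 with 16 of 17 above 0, and 0.0914 at day 7. Saa3, an acute-phase protein made by injured epithelium and macrophages, rose by 1.82 ± 0.29 in KO lungs and was not called in C lungs (0.64 ± 0.27). Its difference of 1.18 ± 0.40 had an unadjusted p of 0.00589 and was not called. The acute-phase protein Orm1 rose by 3.24 ± 0.39 in KO and 2.82 ± 0.38 in C lungs, a difference of 0.42 ± 0.58. The chemokine Ccl7 had the smallest p among negative members (-0.18 ± 0.42). The abundant members Nfkbia, an inhibitor of NF-kB, and Icam1, an adhesion molecule, were not called in either genotype and had differences of 0.09 ± 0.16 and 0.14 ± 0.32.

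Interferon-stimulated genes made up the list with the most members at an unadjusted p under 0.05. Averaged over days, 13 of 25 genes fell in C lungs after naphthalene, where 1.14% of all tested genes fell. In KO lungs 0 of 25 were called, a count near the share of 4.71% called over all tested genes. The medians were -0.191 in KO and -0.57 in C lungs. The difference itself was called for 0 of 25 and was above 0 for 24, with a median of 0.455. It had an unadjusted p under 0.05 for 11 of the 25 genes, against 2.28% of all tested genes. Of the 25 genes 12 had a difference above 0 at every day, against 1750 of all 20606 tested genes. The list median was 0.312 at day 2, 0.631 at day 5 and 0.419 at day 7. It was 0.453 without Untr_5_C replicate 1 and stayed between 0.374 and 0.54 when any single library was left out.

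Which arms differed in the summed level of this list varied by day. At day 2 the untreated arms had similar means, 635 CPM in KO and 632 CPM in C lungs. The treated arms were then at means of 391 CPM in KO and 342 CPM in C lungs, with overlapping libraries. The summed level of the Interferon-stimulated list at day 2 was 466, 412 and 296 CPM in Tr KO lungs against 629, 701 and 576 CPM in Untr KO lungs. For Tr C lungs of day 2 it was 341, 336 and 350 CPM against 627, 541 and 727 CPM in Untr C lungs. Both genotypes were lower after naphthalene at day 2, with no overlap in either, and 5 of 25 genes fell in KO lungs (0.747% of all tested genes fell) and 11 in C lungs (1.18%) at that day. At day 7, 1 gene of the list rose in KO lungs (0.0631% of all tested genes rose). At day 5 it was 751, 510 and 623 CPM in Tr KO lungs against 589, 688 and 595 CPM in Untr KO lungs. For Tr C lungs of day 5 it was 661, 493 and 608 CPM against 879, 1041 and 668 CPM in Untr C lungs. At day 7 it was 602 and 609 CPM in Tr KO against 556, 535 and 555 CPM in Untr KO lungs, and 620, 622 and 664 CPM in Tr C against 774, 718 and 689 CPM in Untr C lungs. At days 5 and 7 the treated arms were at similar levels, and the Untr C libraries were higher than the Untr KO libraries apart from 1 overlap at day 5. The direct comparison of KO and C lungs called 0 genes in treated and 0 in untreated mice averaged over days (0% each), with 1036 (5.03%) and 1759 (8.54%) genes at an unadjusted p under 0.05.

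Oas1a, an oligoadenylate synthetase induced by interferon, had the smallest p among positive differences of genes that reached 5 CPM in at least 1 group. At day 5 it was at 8.20, 6.64 and 8.40 CPM in Tr KO lungs against 5.20, 7.21 and 5.39 CPM in Untr KO lungs. Tr C lungs had it at 6.77, 5.16 and 7.81 CPM against 11.5, 12.3 and 9.07 CPM in Untr C lungs. KO lungs overlapped by treatment and C lungs did not. It fell in C lungs averaged over days (-0.60 ± 0.14, adjusted p = 0.0102) and was at 0.14 ± 0.15 in KO lungs, a difference of 0.74 ± 0.21 (interval 0.314 to 1.16, unadjusted p = 0.00122, adjusted p = 1). Parp12, another interferon-induced gene, was at 0.08 ± 0.09 in KO lungs and fell by 0.333 in C lungs, a difference of 0.42 ± 0.12. The antiviral genes Rtp4 and Rsad2 and the transcription factor Irf7 had differences of 0.43 ± 0.15, 0.77 ± 0.30 and 0.60 ± 0.21. Bst2 and Stat2, the most abundant members, were at 0.19 ± 0.19 and 0.28 ± 0.22, and Ifit2 was the single member below 0 (-0.08 ± 0.21).

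**Figure D4:**
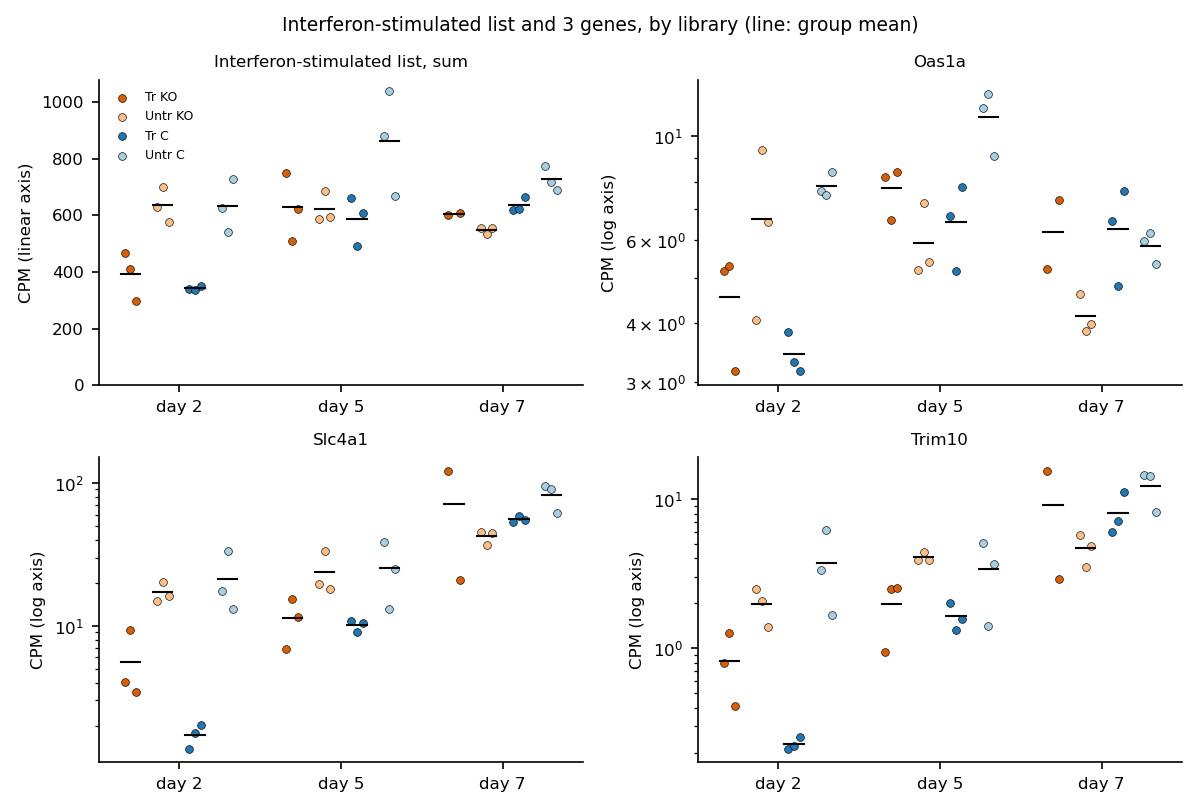
Summed CPM of 25 interferon-stimulated genes on a linear axis from 0, and CPM of Oas1a, Slc4a1 and Trim10 on log axes, in each library by day and arm (Tr KO, Untr KO, Tr C, Untr C); short lines are group means. Untr C libraries of days 5 and 7 are mostly higher than Untr KO libraries in the interferon panel, and Slc4a1 in the 2 Tr KO libraries of day 7 was 121 and 20.9 CPM.

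Red cell genes had a similar list median that depended more on single libraries. Of 11 genes, 1 fell in KO and 4 in C lungs, 10 differences were above 0, and the median was 0.429 (0.222 without Untr_5_C replicate 1). Slc4a1, the anion exchanger of the red cell membrane, was at 4.04, 9.32 and 3.46 CPM in Tr KO lungs at day 2 against 15, 20.2 and 16.2 CPM in Untr KO lungs. In Tr C lungs of day 2 it was at 1.38, 1.76 and 2.03 CPM against 17.5, 33.4 and 13.1 CPM in Untr C lungs. All Tr KO libraries of day 2 lay above all Tr C libraries, and untreated libraries of the 2 genotypes overlapped. At day 7 it was at 121 and 20.9 CPM in Tr KO against 45.6, 36.7 and 44.8 CPM in Untr KO lungs. The averaged difference of 1.20 ± 0.37 (unadjusted p = 0.00274) was not called and was 0.624 without Tr_7_KO replicate 1. Trim10, a ubiquitin ligase of erythroid cells, was at 1.44 ± 0.44. The abundant haemoglobin genes Hbb-bs and Hba-a1 were at 0.32 ± 0.28 and 0.18 ± 0.39, and their near-identical copies make the split of counts among them uncertain. The summed red cell level ranged from 2080 to 15200 CPM in Tr KO, 3100 to 24300 in Untr KO, 1790 to 23200 in Tr C and 4060 to 23700 in Untr C lungs, and how much blood each lung held was not measured.

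B cell genes fell in both genotypes, 8 of 15 in KO and 7 of 15 in C lungs, and 14 of 15 differences were below 0 with a median of -0.188, which was -0.365 without Tr_5_KO replicate 1 and -0.122 without Tr_7_KO replicate 2. Ighm, the constant region of IgM, fell by 0.80 in KO and 0.455 in C lungs, a difference of -0.35 ± 0.19. The list median was -0.877 at day 7 and 0.446 at day 5, where it was -0.0249 without Untr_5_C replicate 1. Of 20 proliferation genes 0 were called in either genotype, and the median difference of 0.317 was -0.0829 without Tr_7_KO replicate 2 and 0.493 without Tr_7_KO replicate 1. The survivin gene Birc5 had the smallest p of that list (0.55 ± 0.31). In T cell genes (16 tested), natural killer cell genes (13) and mast cell and basophil genes (9) the medians were 0.0205, 0.136 and -0.0524. Without Untr_5_C replicate 1 they were 0.00158, 0.0564 and 0.00942.

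At the other end, all 11 tested cardiac muscle genes, which mouse lung expresses in the muscle sleeves of the pulmonary veins, had differences below 0. Their median was -0.259, and 0 were called for the averaged difference or for the averaged naphthalene effect in KO or C lungs. The daily medians were 0.023 at day 2 with 6 of 11 above 0, -0.506 at day 5 (-0.899 without Untr_5_C replicate 1) and -0.11 at day 7. At day 5, 3 of the 11 genes rose in C lungs (1.1% of all tested genes rose there). Without that library, calls in C lungs of day 5 dropped from 492 to 23 over all tested genes. The count within the list was not taken again. Casq2, the calcium-binding protein of the cardiac sarcoplasmic reticulum, had the smallest p among negative differences of genes that reached 5 CPM in at least 1 group. At day 2 it was at 3.58, 3.55 and 3.63 CPM in Tr KO lungs against 9.48, 5.12 and 5.47 CPM in Untr KO lungs. Among C lungs, treated ones were at 5.85, 4.78 and 4.69 CPM against 5.60, 3.61 and 5.96 CPM in Untr C lungs. KO lungs of day 2 separated by treatment and C lungs overlapped. At day 5 it was at 4.63, 4.43 and 5.52 CPM in Tr KO lungs against 7.22, 8.17 and 3.50 CPM in Untr KO lungs, and at 5.57, 7.22 and 5.61 CPM in Tr C lungs against 5.46, 3.23 and 2.45 CPM in Untr C lungs. There the KO lungs overlapped and the C lungs did not. Averaged over days the difference was -0.89 ± 0.25 (interval -1.40 to -0.384, unadjusted p = 0.00116, adjusted p = 1), and -1.02 without Untr_5_C replicate 1. Csrp3, a muscle LIM protein, was also among the leading negative genes (-0.62 ± 0.27). The summed cardiac level ranged from 295 to 533 CPM (median 399) in Tr KO, 346 to 548 (416) in Untr KO, 283 to 560 (429) in Tr C and 259 to 656 (370) in Untr C lungs. The amount of vein muscle in each sample was not measured, and its part in these values was not tested.

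Among genes that reached 5 CPM in a group, the 10 positive differences with the smallest p also held the cytokine receptor chain Csf2rb (0.47 ± 0.14), the cilia protein Cfap61 (0.89 ± 0.27), the integrin Itgax of dendritic cells and alveolar macrophages (0.53 ± 0.17), the macrophage elastase Mmp12 (0.80 ± 0.26), the histidine decarboxylase Hdc (0.48 ± 0.16) and the chemokine Ccl9 (0.47 ± 0.16). Of these, Csf2rb, Cfap61, Hdc and Ccl9 rose after naphthalene in KO lungs (by 0.49, 1.49, 0.85 and 0.63), and none of these 6 was called in C lungs. The 10 negative differences also held Rad50 of the DNA repair complex (-0.35 ± 0.14), Crcp (-0.39 ± 0.16), Zfp334 (-0.33 ± 0.13), Mllt11 (-0.49 ± 0.20), the ubiquitin ligase Nedd4 (-0.35 ± 0.15), the tubulin ligase subunit Ttll1 (-0.36 ± 0.16), Sned1 (-0.58 ± 0.25) and the sugar phosphate mutase Pgm3 (-0.53 ± 0.23). Ttll1 and Pgm3 rose in C lungs (by 0.42 and 0.59) and were not called in KO lungs. For the difference none of these 20 genes was called. They are the extremes of 20606 values in which every adjusted p was 1.

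By single days the picture was the same at the threshold and uneven below it. The KO minus C difference was called for 0 of 20606 genes at day 2 (371 genes, 1.8%, at an unadjusted p under 0.05), for 0 at day 5 (1869 genes, 9.07%) and for 0 at day 7 (882 genes, 4.28%). DESeq2 and limma-voom also called 0 at each day. The smallest adjusted p was 1 at day 2, 0.484 at day 5 and 0.969 at day 7. A test that asks for a difference on any day called 0 (939 genes, 4.56%, at an unadjusted p under 0.05), and so did a test of whether the difference changes between days (1409 genes, 6.84%). All libraries of day 7 share the letter p in their library names, so the comparison of that day lies within a single letter, whose meaning the labels do not give. At days 2 and 5 treated and untreated libraries carry different letters, but KO and C libraries share them, except for Tr_5_KO replicate 2.

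The number of genes below the threshold at day 5 moved with single libraries. Without Untr_5_C replicate 1, 1086 genes (5.28%) had an unadjusted p under 0.05 and 0 were called. Leaving out other libraries of day 5 gave between 803 genes (without Untr_5_KO replicate 1) and 3425 (without Untr_5_C replicate 3), with 1192 without Tr_5_C replicate 2 and 1272 without Untr_5_C replicate 2, and again 0 called. The naphthalene effect in C lungs at day 5 was called for 492 genes (2.39%) with that library and for 23 (0.112%) without it, where 2 untreated C libraries remain. In KO lungs of day 5, which do not use that library, the counts were 272 (1.32%) and 287 (1.4%). Over the 12 microglia genes the median day 5 difference was 2.74 with the library and -0.39 without it. P2ry12, a purinergic receptor of microglia, was at 3.87 with it and -0.70 without it, and the lipid receptor Trem2 at 3.31 and 0.09. Averaged over days the microglia list had a median of 1.33 with the library and 0.149 without it. Genes of the list that lung cells also express, Sparc, Olfml3 and Tmem119, were not highest in that library and moved little.

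**Figure D5:**
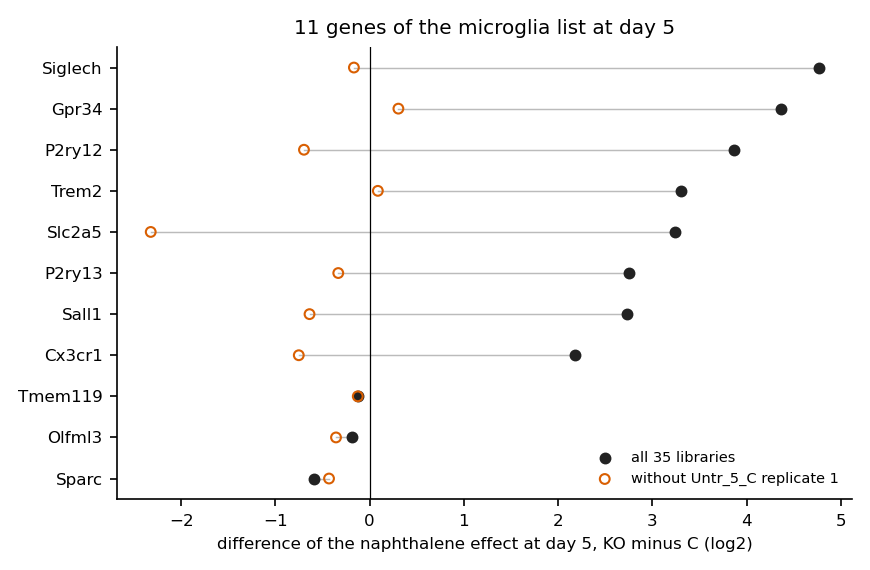
Difference of the naphthalene effect at day 5 (KO minus C, log2) for 11 microglia genes, with all 35 libraries (filled points) and without Untr_5_C replicate 1 (open points). For 8 of these the value is at least 2.18 with that library and at most 0.305 without it.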

How the data were processed

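The authors deposited unnormalised counts per gene, 1 column for each of 35 libraries and 57186 genes. The submitters' processing notes name GRCm39 and DESeq2 without their role, and neither aligner nor annotation is stated. No coordinates are printed because the reference at hand is of another build. The test was that of edgeR 4.0.16 under R 4.3.3 (filterByExpr on 12 groups, leaving 20606 of 39417 genes with any read and at least 99.87% of counts; TMM scaling; robust quasi-likelihood fit of 12 group means; 23 residual degrees of freedom). All tests are two-sided, with Benjamini-Hochberg adjustment over all tested genes and a threshold of 0.05. SE is the log2 estimate divided by the root of F, and intervals are 95%. For genes near 0 CPM in an arm, such as Prss22 and Psapl1, this SE and the interval from it are only rough. limma 3.58.1 and DESeq2 1.42.0 were alternatives. CPM are TMM-scaled, and list sums include all members in the table. The 37 gene lists, their members and the comparison itself were chosen with earlier results of these data known.

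Named genes are the 10 smallest p per direction for the averaged difference and the 6 largest called naphthalene changes per direction, among genes reaching 5 CPM in a group with an ordinary gene symbol (some are left out of the text); Rora, Il7r, Scgb1a1, Areg and the ILC2 list, and, per list described, its 2 most abundant members and its smallest p per direction. Outside this rule Cyp2f2, Foxj1, Krt8, Cldn4, Rtp4, Rsad2, Irf7 and the microglia genes were named after their values were seen. Some genes within the rule are not reported here.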

Additional observations from a re-analysis of the deposited data

How the results depend on the processing

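Under DESeq2, limma-voom, median-ratio scaling, a non-robust spread, a filter at 1 CPM, a common coefficient over days, averages over pairs of days, single-day fits and the replicate block, all 6 tests of the KO minus C difference called 0 genes wherever they could be run. Replicate numbers gave no clear pairing of the samples. Across groups of the same day, 51 same-number pairs had a median correlation of 0.0332, and 21 were over 0.1. For 102 pairs of other numbers the median was -0.0294, and 41 were over 0.1. With the replicate block the naphthalene effect was called for 1000 genes in KO, 808 in C and 2534 pooled. With the library letter as a term all 6 difference tests again gave 0; that fit was not run for naphthalene effects because at days 2 and 5 the letters follow treatment.

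Leaving out 1 library at a time gave 0 to 0 for the average, day 2, day 5, day 7 and any-day tests and 0 to 1 for the change between days, with 1 gene without Untr_2_C replicate 3. The naphthalene effect was called for 725 to 1545 genes in KO lungs (most without Tr_5_KO replicate 1), 577 to 1241 in C lungs (fewest without Untr_5_C replicate 1, most without its replicate 3) and 1897 to 3731 pooled. Where an arm keeps 1 or 2 libraries, they are taken to vary like the other groups.

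The setting that changed calls was no filter on low counts, where 39417 genes share a spread estimate with infinite median prior degrees of freedom, against 8.24 with the filter. It called 21 genes for the average, 12 at day 2, 168 at day 5, 51 at day 7, 248 on any day and 264 for the change between days, and 1498 for naphthalene in KO and 1427 in C lungs. All 21 were tested with the filter too and not called there. They include Slc4a1, Trim10, Cd177, Saa3 and Retnla, and the microglia genes Trem2, P2ry12, P2ry13, Gpr34 and Cx3cr1. With Untr_5_C replicate 1 also left out, a combination chosen after seeing the data, the counts were 10, 12, 53, 56, 137 and 150, and 1539 for naphthalene in KO lungs. Those microglia genes were no longer called, and Slc4a1, Trim10, Cd177, Saa3 and Retnla still were.

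Over 170 named genes and up to 48 alternatives, 8137 values were recomputed: 7993 moved by less than 1 SE, 133 by more, 11 passed the threshold without the filter, and 0 reversed a call. The sign changed in 431 of the values, none of them called; Il7r ranged from -0.251 to 1.229 and Retnla from -0.281 to 2.284. The 20 leading genes, chosen for small p, kept their sign. Rare transcripts such as Il5 and Prss22 had wide intervals.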
